A study of Mus musculus with 4 samples.

Results

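Sterol and steroid enzymes of intestinal mesenchymal stromal cells (MSC) were examined through 5 genes, *Ch25h*, *Cyp7b1*, *Hsd3b7*, *Hsd11b1* and *Cyp1b1*, of the 28692 gene rows in each count matrix. The members were selected on their levels in these same libraries, so their levels by intestine and cell class are given as a description with no test. Cells came from untreated female C57BL6/Nrj mice aged 8 to 10 weeks, with 2 single-cell libraries from the lamina propria of the small intestine and 2 from that of the colon. Each of 2 independent experiments per intestine pooled 3 mice, so a library is a pool and not an animal. The labels do not tie a replicate number to an experiment. The muscle layer had been stripped, and live cells positive for integrin β1 and negative for CD45, Ter119, EpCAM, CD31, L1CAM and BP3 were sorted. All groups share strain, sex and sort. The digestion steps differed between the intestines per the study's methods, so that tissue preparation and intestine cannot be told apart.

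CH25H adds a hydroxyl group to cholesterol and makes 25-hydroxycholesterol, and CYP7B1 converts this into a ligand of the receptor GPR183 (EBI2), which guides lymphoid cells in gut lymphoid tissue. HSD3B7 acts next on 7α-hydroxylated sterols and inactivates that ligand. HSD11B1 reduces inactive 11-keto glucocorticoids to their active form inside cells, and HSD11B2 runs the opposite reaction. CYP1B1 oxidises steroids, retinoids and aromatic compounds, and its gene is a known target of the aryl hydrocarbon receptor AhR.

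The libraries held 14341443 to 52269372 unique molecular identifiers (UMIs) over all their barcodes. After filtering, the small intestine kept 1828 and 14350 cells and the colon 2399 and 12108 (replicates 1 and 2). The median was 6965 and 8810 UMIs per cell in the replicate 1 libraries and 2734.5 and 3878 in the replicate 2 libraries, for small intestine and colon. Cells were gated by markers into PDGFRαhi fibroblasts (FB), CD81+ FB, other FB, smooth muscle cells (SMC) and pericytes, with no use of the 5 genes. The other FB take in the subsets that the study named Fgfr2+ FB and, by intestine, Igfbp5+ FB or CD90+ FB. The 8 PDGFRαhi FB markers summed to 2869 to 4281 CPM (UMIs per 1000000 UMIs of the class) in their own class and to 309.9 to 546 CPM in other FB. The 6 CD81+ FB markers summed to 2846 to 3580 CPM in CD81+ FB and to 833 to 954 CPM in other FB. Both classes were gated on these same markers, so the sums describe the gate and cannot test the labels. Between 2.13% and 10.3% of the cells of a library lay within 0.1 of a gate's threshold. Libraries shared at most 57 cell barcodes. All 5 genes passed the low-count filter in all 3 FB classes.

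**Figure D1:**
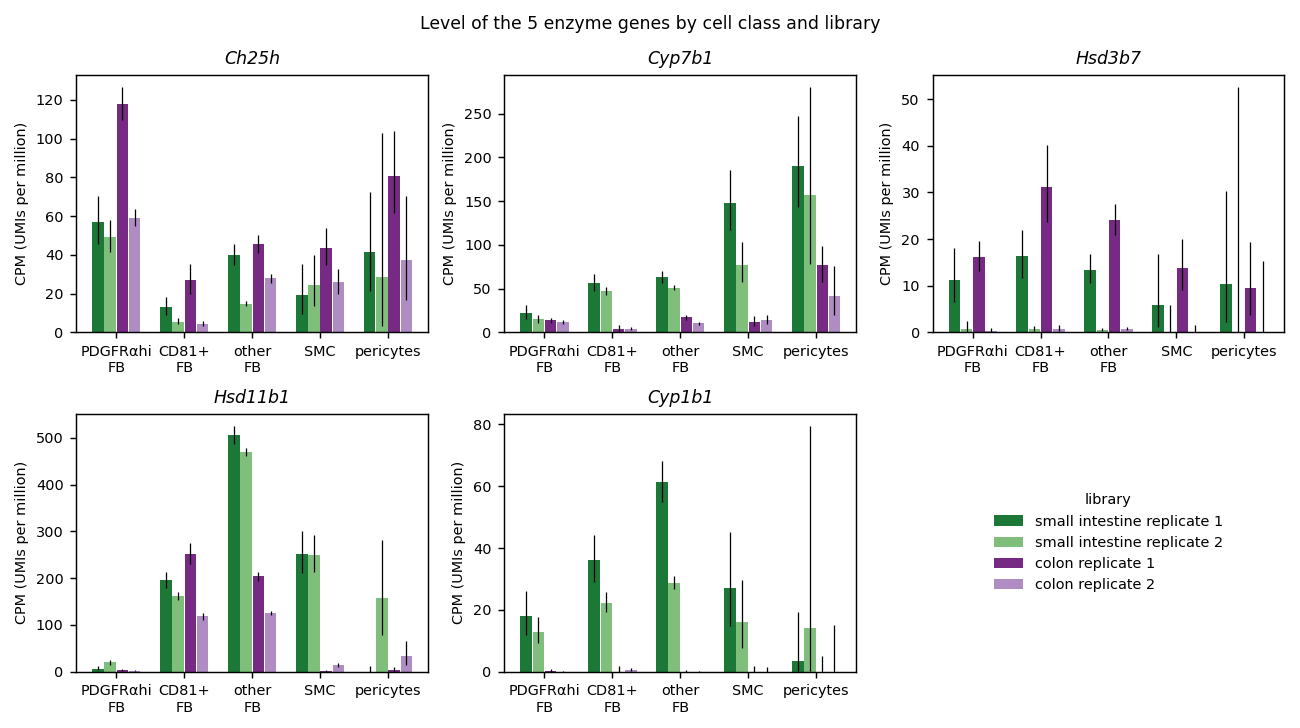
Level of each enzyme gene (vertical axis, CPM, linear) in 5 cell classes (horizontal axis). Each bar is 1 library, green for small intestine and purple for colon, with its 95% Poisson interval, which covers counting error only. *Cyp7b1* and *Cyp1b1* bars are green above purple in the FB classes, and the *Hsd3b7* bars of the 2 replicate 2 libraries are at or near 0.

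*Ch25h* (ENSMUSG00000050370, chr19:34473778-34475164, minus strand, GRCm38) is a gene of a single 1387-base exon, of which the antisense gene *Gm26902* (1.71 to 4.05 CPM in other FB) shares 11.5%. Of the 3 FB classes it was highest in PDGFRαhi FB, the fibroblasts that lie next to the epithelium, and lowest in CD81+ FB, in each of the 4 libraries. PDGFRαhi FB held 56.9 and 49.2 CPM in small intestine (86 and 149 UMIs) and 118 and 59.0 CPM in colon (751 and 713 UMIs). Both colonic libraries were thus above both small intestinal ones, but colon replicate 2 by only 1.04 times, and the fitted log2 difference of colon over small intestine was 0.86 (SE 0.37). In this class 1.68% of the 11516 genes tested were called between the intestines, and nothing is read from a count of members, since the choice of members used this contrast. Other FB held 39.8 and 14.8 CPM in small intestine and 45.3 and 27.9 CPM in colon. These ranges overlapped, as did those of CD81+ FB, which held 13.2 and 5.59 CPM in small intestine and 26.8 and 4.42 CPM in colon. The fitted log2 difference in other FB turned from 0.40 to -0.18 without small intestine replicate 2, and that in CD81+ FB turned from 0.47 to -0.14 without small intestine replicate 2 and to -1.14 without colon replicate 1.

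The promoter of *Ch25h* is shown because the gene's level was higher at a high immediate early score in colonic PDGFRαhi FB and other FB, and promoters of such genes can hold cAMP response elements. The 250 bases before the RefSeq start (GRCm38.p6, chr19:34475149-34475398, minus strand, 5′ to 3′) are printed with a full cAMP response element (TGACGTCA) and the AhR core motif (GCGTG) in capitals, and the last few bases lie inside the GENCODE exon.
Ch25h: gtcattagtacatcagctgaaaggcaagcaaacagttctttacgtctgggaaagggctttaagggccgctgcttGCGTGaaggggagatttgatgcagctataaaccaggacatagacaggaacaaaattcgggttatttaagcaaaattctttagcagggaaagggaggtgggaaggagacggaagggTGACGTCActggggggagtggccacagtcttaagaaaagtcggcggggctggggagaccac
On either strand, TGACGTCA was found in 1.546% and GCGTG in 28.16% of 32851 promoter windows of this length. The AP-1 motif TGACTCA (4.463% of windows) was in none of the 4 member promoters with a RefSeq entry here, those of *Ch25h*, *Hsd3b7*, *Hsd11b1* and *Cyp1b1*. A match is a run of letters and not evidence that a factor binds.

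Within a class, *Ch25h* was not even across cells. Cells were split by a score of *Fos*, *Fosb*, *Jun*, *Junb*, *Egr1* and *Atf3*, immediate early genes that respond within minutes to stimulation and also to tissue dissociation. Colonic other FB with a high score held 72.8 and 37.6 CPM of *Ch25h*, against 16.3 and 9.23 CPM at a low score, a ratio of 4.46 and 4.07 in replicates 1 and 2. Small intestinal other FB gave 43.0 and 14.1 CPM at a high score and 39.8 and 14.5 CPM at a low one, a ratio of 1.08 and 0.97. In other FB the ratio was thus above 4 in both colonic libraries and near 1 in both small intestinal ones, a difference that was not tested. In CD81+ FB the ratio was 0.71 in small intestine replicate 2 and 1.26 in colon replicate 2, on 5 to 28 UMIs a side. The replicate 1 libraries had too few low-score UMIs in this class for a ratio. Colon replicate 1 held 34.96 CPM at a high score (48 UMIs) and 3.04 CPM at a low one (1 UMI). Small intestine replicate 1 held 16.05 CPM at a high score (29 UMIs) and 0 UMIs in its 21 low-score cells. CD81+ FB thus gave no single pattern. A score of *Cxcl1*, *Cxcl2*, *Ereg*, *Areg*, *Ptgs2* and *Ccl2*, genes of activated fibroblasts, gave ratios above 1 in other FB of all 4 libraries. They were 1.60 and 1.55 for the small intestinal libraries and 4.92 and 3.03 for the colonic ones. In PDGFRαhi FB the immediate early ratio was 2.58 and 4.22 in colon and 2.95 in small intestine replicate 2. Small intestine replicate 1 had under 20 cells with a high immediate early score. The activated ratio in PDGFRαhi FB was 2.66 and 2.23 in colon, and both small intestinal libraries had under 20 cells with a high activated score. Median depth was also higher in other FB with a high immediate early score, at 9602 against 8465.5 UMIs in colon replicate 1 and 4258 against 3671 in colon replicate 2. In small intestine it was likewise higher, at 8960.5 against 7323 and 2962 against 2435.

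The summed level of the 6 immediate early genes in PDGFRαhi FB itself was 9521 and 17517 CPM in small intestine and 29837 and 33845 CPM in colon. Among PDGFRαhi FB with a low immediate early score, *Ch25h* was 42.2 and 37.2 CPM in small intestine and 64.1 and 22.3 CPM in colon, so that the intestines overlapped. The part of dissociation in the score was not tested. By the activated score, the *Cyp7b1* ratio in other FB was 1.99 in colon replicate 1 and 1.26 in colon replicate 2. The small intestinal libraries gave it as 1.01 and 1.12. The *Hsd3b7* ratio by that score was 1.34 in small intestine replicate 1 but 0.75 in colon replicate 1. By the immediate early score, none of the 4 genes besides *Ch25h* gave a ratio above 1.2 in other FB where at least 20 UMIs lay on both sides. *Hsd11b1* was lower in high-score other FB in all 4 libraries, at 0.86 and 0.73 times the low-score level in small intestine and 0.80 and 0.67 times in colon.

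**Figure D2:**
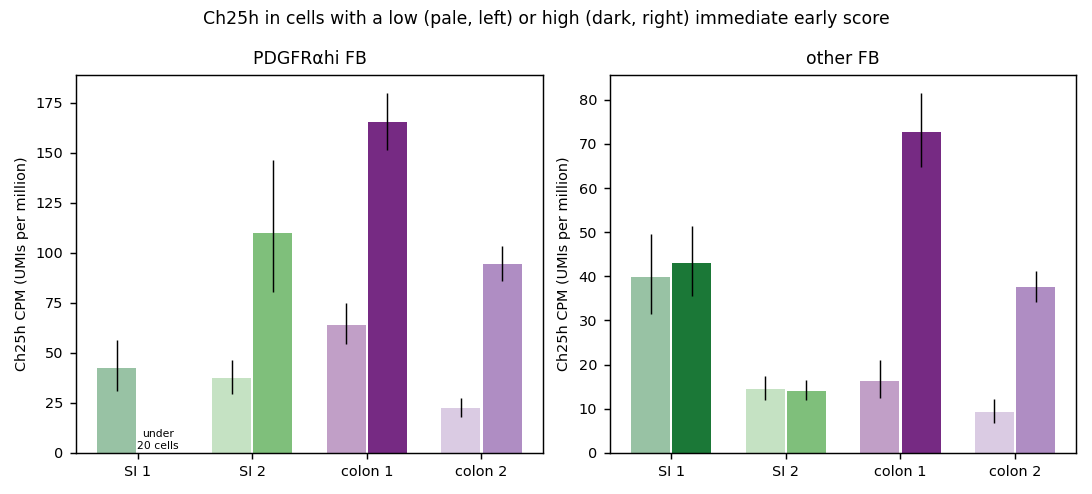
*Ch25h* level (vertical axis, CPM) in PDGFRαhi FB (left) and other FB (right) of each library, for cells with a low (pale) or high (dark) immediate early score. Scores are scaled within each library. Bars carry 95% Poisson intervals of counting error. In other FB the dark bar stands above the pale one in the 2 colonic libraries, and the bars are level in the 2 small intestinal libraries.

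*Cyp7b1* (ENSMUSG00000039519, chr3:18071950-18243338, minus strand) was higher in small intestine than in colon in each of the 5 classes, with no overlap between libraries. In CD81+ FB it was 56.3 and 47.0 CPM in small intestine (145 and 378 UMIs) and 4.29 and 4.31 CPM in colon (8 and 38 UMIs). The means were 51.6 ± 6.57 (SD, n = 2 libraries) and 4.30 ± 0.02 CPM, a 12.0-fold difference. In that class 0.377% of 11394 genes were called. Other FB had 63.0 and 51.1 CPM in small intestine and 17.1 and 10.3 CPM in colon, a 4.16-fold difference between the means. In this class 0.508% of 13000 genes were called. PDGFRαhi FB came closest between the intestines, at 22.5 and 15.2 CPM against 13.7 and 12.0 CPM, and the nearest libraries differed by 1.11 times.

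Pericytes, the mural cells of small vessels, had the highest *Cyp7b1* level of the 5 classes in every library. It was 189.9 and 157 CPM in small intestine (55 and 11 UMIs) and 76.7 and 41.2 CPM in colon (57 and 10 UMIs). In SMC it was 148 and 77.5 CPM in small intestine and 12.3 and 14.3 CPM in colon. The pericyte sums of the replicate 2 libraries rest on 38 and 86 cells, so the order of pericytes and SMC in small intestine lay within counting error (intervals of 143 to 247 against 117 to 185 CPM in replicate 1). Between FB classes the order also differed by intestine. PDGFRαhi FB had the lowest of the FB levels in both small intestinal libraries, and CD81+ FB had it in both colonic libraries.

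*Hsd3b7* (ENSMUSG00000042289, chr7:127800604-127803802, plus strand) differed far more between replicates than between intestines. In other FB it was 13.3 and 24.1 CPM in the replicate 1 libraries of small intestine and colon (75 and 208 UMIs), but 0.50 and 0.76 CPM in the replicate 2 libraries (14 and 17 UMIs). PDGFRαhi FB gave 11.3 and 16.2 CPM in replicate 1 and 0.66 and 0.33 CPM in replicate 2. CD81+ FB gave 16.3 and 31.1 CPM in replicate 1 and 0.62 and 0.79 CPM in replicate 2. Within replicate 1 the colon was above the small intestine in all 3 FB classes. In the replicate 2 libraries the sums of 2 to 17 UMIs could not show a difference.

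Few genes behaved this way. Of 9834 genes with at least 5 CPM in 1 or both replicates of each intestine in other FB, 18 (0.183%, *Hsd3b7* included) had ratios of replicate 1 to replicate 2 in both intestines that were at least as high as the lower of the *Hsd3b7* ratios. The count was 17 of 9451 genes in CD81+ FB and 36 of 9848 in PDGFRαhi FB. The log2 ratio of replicate 1 to replicate 2 (0.1 CPM added) was 4.49 in small intestine and 4.81 in colon for *Hsd3b7* in other FB, and between 0.11 and 1.43 for *Ch25h*, *Cyp7b1* and *Hsd11b1*. Replicates 1 and 2 were counted with Cell Ranger 3.0.2 and 3.1.0, and a 3′ or a 5′ kit was used, without a statement of which library had which. The annotation places *Gm49388* on the same strand across *Hsd3b7*. Its exons cover 62.0% of the exonic bases of *Hsd3b7*, with all (100%) of the last 500 and 34.4% of the first 500, and *Gm49388* had 0 UMIs in other FB of all 4 libraries. Reads that fit more than 1 gene are left out by Cell Ranger, so the *Hsd3b7* level is uncertain. The part of kit, software version and shared exons in the replicate difference was not tested.

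**Figure D3:**
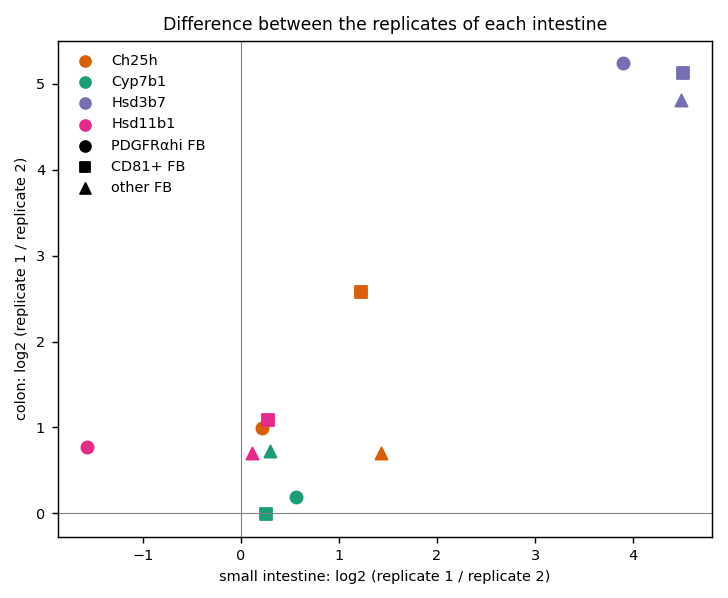
Log2 ratio of replicate 1 to replicate 2 in small intestine (horizontal axis) and colon (vertical axis) for 4 of the genes (colours) in the 3 FB classes (shapes). *Cyp1b1* is left out because it is at or near 0 in colon. The 3 *Hsd3b7* points lie at the upper right, at 3.90 to 4.51 and 4.81 to 5.24, apart from the other points.

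*Hsd11b1* (ENSMUSG00000016194, chr1:193221634-193264075, minus strand) was higher in other FB and CD81+ FB than in PDGFRαhi FB in each of the 4 libraries. Other FB held 506 and 469.6 CPM in small intestine (2844 and 13230 UMIs) and 204 and 125 CPM in colon (1764 and 2795 UMIs), which do not overlap. The fitted log2 difference was -1.61 (SE 0.29), and the means differed 2.96-fold. CD81+ FB held 196 and 162 CPM in small intestine and 252 and 119 CPM in colon, so that the intestines overlapped. The fitted log2 difference was -0.13 (SE 0.41), while the mean CPM was slightly higher in colon (185 against 179 CPM). This class thus had no clear direction, and its log2 difference ran from -0.71 to 0.29 with 1 library left out. PDGFRαhi FB held 6.62 and 19.8 CPM in small intestine and 3.61 and 2.07 CPM in colon. Among FB, the lowest level outside PDGFRαhi FB, 119 CPM in CD81+ FB of colon replicate 2, was thus above the highest level within them.

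Shares of cells gave the same order at equal depth. With each cell thinned to 1500 UMIs, 47.3% and 46.6% of small intestinal other FB and 22.6% and 15.2% of colonic other FB had an *Hsd11b1* UMI, against 0 to 1.93% of PDGFRαhi FB. Unthinned shares were 82.6%, 62.9%, 64.3% and 32.5% in other FB (small intestine replicates 1 and 2, then colon) and 0.74% to 2.90% in PDGFRαhi FB, at median depths of 7939, 2741, 9163 and 4065 against 9209, 2151, 10382 and 3859 UMIs. Thinning left out 14 to 1041 cells of other FB and 0 to 205 of PDGFRαhi FB per library. Cells outside the MSC classes did not give 1 background. Endothelial cells gave unthinned shares of 1.11% and 2.09% in the replicate 1 libraries of small intestine and colon at median depths of 4395 and 5086 UMIs. Immune and plasma cells, in sets of 10 to 82 cells, gave 7.14% to 60.0% over the libraries. The 6 FB markers named below summed to 15965 to 29489 CPM in the immune and plasma cells of the replicate 2 libraries, to 20698 CPM in the immune cells of colon replicate 1, and to 1939 and 142 CPM in the immune and plasma cells of small intestine replicate 1, where the plasma cells gave 33.3% at a median of 26927 UMIs. The part of fibroblast RNA in these shares was not tested, and the low shares of PDGFRαhi FB are not read as expression.

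Within other FB, the gates used to separate the subsets of the study also separated *Hsd11b1*. Small intestinal cells high in *Fgfr2* and low in *Cd34* held 631 and 659 CPM, and those high in *Cd34* and low in *Fgfr2* held 392 and 368 CPM. Colonic cells high in *Fgfr2* and low in *Thy1* held 209.7 and 132 CPM, and those high in *Thy1* and low in *Fgfr2* held 132 and 98.6 CPM. The Fgfr2-high side was higher in all 4 libraries, and each small intestinal subset was above each colonic one. *Ch25h* was likewise higher on the Fgfr2-high side in all 4 libraries, at 42.9 and 22.0 CPM against 18.2 and 9.11 CPM in small intestine and 71.6 and 39.3 CPM against 25.3 and 15.3 CPM in colon.

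SMC of the small intestine held 252 and 250.4 CPM of *Hsd11b1* (131 and 155 UMIs), and those of the colon 1.02 and 13.5 CPM (2 and 33 UMIs). The level of fibroblast markers moved with this result, and its part in the result was not tested. The 6 FB markers (*Dcn*, *Lum*, *Col1a1*, *Col1a2*, *Col3a1*, *Adamdec1*) summed to 18382 and 23438 CPM in small intestinal SMC and to 7089 and 8246 CPM in colonic SMC. When the SMC of each library were split at their median share of FB marker UMIs, the lower part of small intestinal SMC held 22.0 and 107 CPM of *Hsd11b1* and the upper part 508 and 354 CPM. The lower part of colonic SMC held 1.06 and 3.28 CPM. The SMC markers summed to 10881 and 7750 CPM in the lower part of small intestinal SMC. In the upper part they summed to only 2514 and 2190 CPM, so the SMC name is less sure there. In the upper part of colonic SMC they summed to 10586 and 7859 CPM. The same split left *Cyp7b1* high in small intestine, where the lower part held 132 and 107 CPM against 9.58 and 16.4 CPM in colon. Pericytes had 0 UMIs of *Hsd11b1* in small intestine replicate 1, which allows up to 10.4 CPM, and 157 CPM (11 UMIs) in replicate 2, where their FB markers summed to 15304 CPM instead of 2068 CPM.

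**Figure D4:**
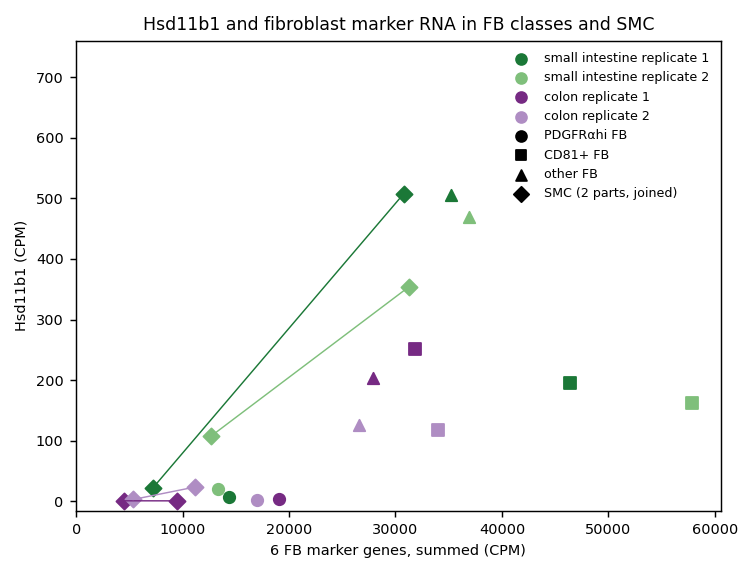
*Hsd11b1* level (vertical axis, CPM) against the summed level of 6 FB marker genes (horizontal axis, CPM) for the FB classes and for SMC split at their median share of FB markers. Points are libraries, and lines join the 2 parts of SMC of a library. The upper parts of small intestinal SMC lie at 508 and 354 CPM, and all 4 PDGFRαhi FB points lie under 20 CPM of *Hsd11b1*.

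*Cyp1b1* (ENSMUSG00000024087, chr17:79701537-79715061, minus strand) had UMIs in each MSC class of both small intestinal libraries and at most 4 UMIs in any class of a colonic library. Other FB held 61.4 and 28.8 CPM in small intestine (345 and 812 UMIs) and 0 UMIs in both colonic libraries, where 0 counts allow up to 0.35 and 0.14 CPM. Against a floor of 3 counts over both colonic libraries, the mean of the small intestinal libraries (45.1 CPM) was at least 465-fold higher. The bound is smaller for replicate 2 alone. CD81+ FB held 36.1 and 22.4 CPM in small intestine (93 and 180 UMIs) and 0 and 0.45 CPM in colon (0 and 4 UMIs). PDGFRαhi FB held 17.9 and 12.9 CPM in small intestine (27 and 39 UMIs) and 1 and 0 UMIs in colon. The ratio of small intestine to colon was 268 there, and counting error alone gave it a 95% interval from 46.5 to 10756. SMC had 14 and 10 UMIs in small intestine and 0 in colon, a mean CPM at least 31.7-fold higher. Of these UMIs, 12 of the 14 and 6 of the 10 lay in the SMC with the upper share of FB markers. Pericytes had 1 UMI in each small intestinal library. Among FB classes the order was other FB, CD81+ FB and PDGFRαhi FB in both small intestinal libraries. Small intestine replicate 1 was above replicate 2 in each FB class.

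The 250 bases before the RefSeq start of *Cyp1b1* (GRCm38.p6, chr17:79715062-79715311, minus strand, 5′ to 3′) are shown because the receptor that targets this gene differed in the opposite direction between the intestines. Capitals mark the AhR core motif read on the other strand (CACGC), which lies 76 bases before the start.
Cyp1b1: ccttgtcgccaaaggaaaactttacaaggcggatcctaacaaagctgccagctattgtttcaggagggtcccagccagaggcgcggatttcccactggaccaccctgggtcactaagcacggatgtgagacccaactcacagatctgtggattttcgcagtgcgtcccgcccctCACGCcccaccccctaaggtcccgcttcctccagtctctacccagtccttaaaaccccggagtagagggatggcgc
This window holds 1 such match, and 28.16% of all promoter windows hold 1 or more.

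The genes most like each member were read from 20 sums (5 classes in 4 libraries) by Pearson's r of log2(CPM + 1) over 5783 genes, sums that share libraries and are not independent. *Cyp1b1* was closest to *Lrat* (r = 0.98), *Hoxc8* (r = 0.94) and *B2m* (r = 0.93). *Hsd11b1* was close to *Sulf2* (r = 0.95) and *Serpina3n* (r = 0.93). *Cyp7b1* was closest to *Sp100* (r = 0.84), *Stbd1* (r = 0.84) and *Rgs5* (r = 0.83), and *Ch25h* to *Cd82* (r = 0.88), *Ucp2* (r = 0.88) and *Ube2e3* (r = 0.85). *Hsd3b7* was closest to *Ndfip1*, *Galnt2* and *CAAA01147332.1* (r = 0.97 each). Among the members themselves r ranged from -0.60 (*Ch25h* and *Hsd11b1*) to 0.60 (*Cyp7b1* and *Cyp1b1*).

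Other genes of these routes were read from 6 lists with 95 gene rows. In the 3 FB classes, *Gpr183*, the receptor of the ligand that CYP7B1 makes, had 13 UMIs over all 4 libraries. *Cyp7a1*, the liver enzyme that also 7α-hydroxylates sterols, had 0 UMIs, whereas *Cyp27a1*, the sterol 27-hydroxylase, lay between 23.1 and 95.5 CPM. *Nr3c1*, the glucocorticoid receptor, lay between 118 and 497 CPM, and *Hsd11b2* at 4.99 CPM or less. Of 24 genes of steroid synthesis and conversion, 8 had 0 UMIs, among them *Cyp17a1*, *Cyp11b1* and *Cyp19a1*, and *Cyp11a1*, the enzyme that starts steroid synthesis from cholesterol, had 1 UMI. *Por*, which passes electrons to CYP7B1 and CYP1B1, lay between 61.6 and 109 CPM.

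Between the intestines, the quasi-likelihood test of edgeR called 3 of 67 list genes in PDGFRαhi FB (4.48% against 1.68% of all genes), 0 of 69 in CD81+ FB (against 0.377% of all genes, with 17 list genes at an unadjusted p under 0.05 and 2 called by DESeq2) and 1 of 74 in other FB (1.35% against 0.508%). All calls were higher in colon and belong to the AhR list. The lists were chosen with earlier results of these data known, so these shares and the adjusted p-values below are a description. Over all genes tested in CD81+ FB, 1008 of 11394 had an unadjusted p under 0.05 and DESeq2 called 232. *Ahr* in PDGFRαhi FB was 5.29 and 6.27 CPM in small intestine and 83.1 and 96.8 CPM in colon, a log2 fold change of 4.08 (SE 0.33, edgeR adjusted p = 0.0193). *Nqo1*, a quinone reductase that AhR induces, was 2.65 and 3.96 CPM in small intestine and 48.2 and 29.0 CPM in colon, with an edgeR adjusted p of 0.0310 at a log2 fold change of 3.60 (SE 0.42). *Ahrr*, the AhR repressor, had 0 UMIs in small intestine and 9.89 and 12.2 CPM in colon, at least 16.7-fold higher (edgeR adjusted p = 0.0493). In other FB *Ahr* was 6.05 and 5.40 CPM in small intestine and 36.2 and 27.3 CPM in colon, with an edgeR adjusted p of 0.0491 at a log2 fold change of 2.44 (SE 0.24). Directions held in all 4 libraries. *Cyp1a1* and *Cyp1a2*, further AhR targets, had 0 UMIs in the FB classes. *Cyp1b1* was at or near 0 in all 3 FB classes of the colon. These include CD81+ FB, where *Ahr* did not pass the low-count filter. A link between *Ahr* and *Cyp1b1* was not tested.

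These calls depended on both small intestinal libraries. With each library left out in turn, the log2 fold change in PDGFRαhi FB stayed at 3.89 to 4.25 for *Ahr* and 3.28 to 3.98 for *Nqo1*, and that of *Ahr* in other FB at 2.28 to 2.58. Without replicate 1 or without replicate 2 of small intestine, edgeR called 0 genes in PDGFRαhi FB (1086 and 1010 at an unadjusted p under 0.05) and in other FB (942 and 755). The edgeR adjusted p of *Ahr* in PDGFRαhi FB was 0.121 and 0.145 (range over all alternatives 2.11e-60 to 0.145). *Ahrr* also lost its call with RLE size factors (adjusted p = 0.0505, range over all alternatives 1.09e-15 to 0.211), clusters of each library, a stricter gate and single-cell scores. *Nqo1* lost it with the stricter gate, and *Ahr* in other FB with that gate and with clusters.

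In the fit without a replicate block, edgeR called no gene of the other 5 lists. Genes of cholesterol synthesis and uptake had a median log2 difference of 0.62 in PDGFRαhi FB, 0.98 in CD81+ FB and 1.18 in other FB, where the medians of all genes tested were 0.01, -0.01 and 0.01. Of its 21 genes, 6, 9 and 10 had an unadjusted p under 0.05, and DESeq2 called 1 in each class. Over all genes tested, to be set beside each list, 1514 of 11516, 1008 of 11394 and 1395 of 13000 had such a p, and DESeq2 called 578, 232 and 460. The list of LXR and sterol transport, which holds the oxysterol receptors *Nr1h2* and *Nr1h3* with genes that move or store sterols, had medians of -0.38, -0.36 and -0.44, with 4 of 12, 2 of 13 and 3 of 13 at an unadjusted p under 0.05 and 0, 1 and 0 called by DESeq2. The lists of oxysterol enzymes, glucocorticoid handling and steroid synthesis had medians between -0.04 and 0.37. They had 4 of 26, 4 of 29 and 6 of 32 genes at an unadjusted p under 0.05 and 2, 0 and 1 called by DESeq2 in PDGFRαhi FB, CD81+ FB and other FB.

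**Figure D5:**
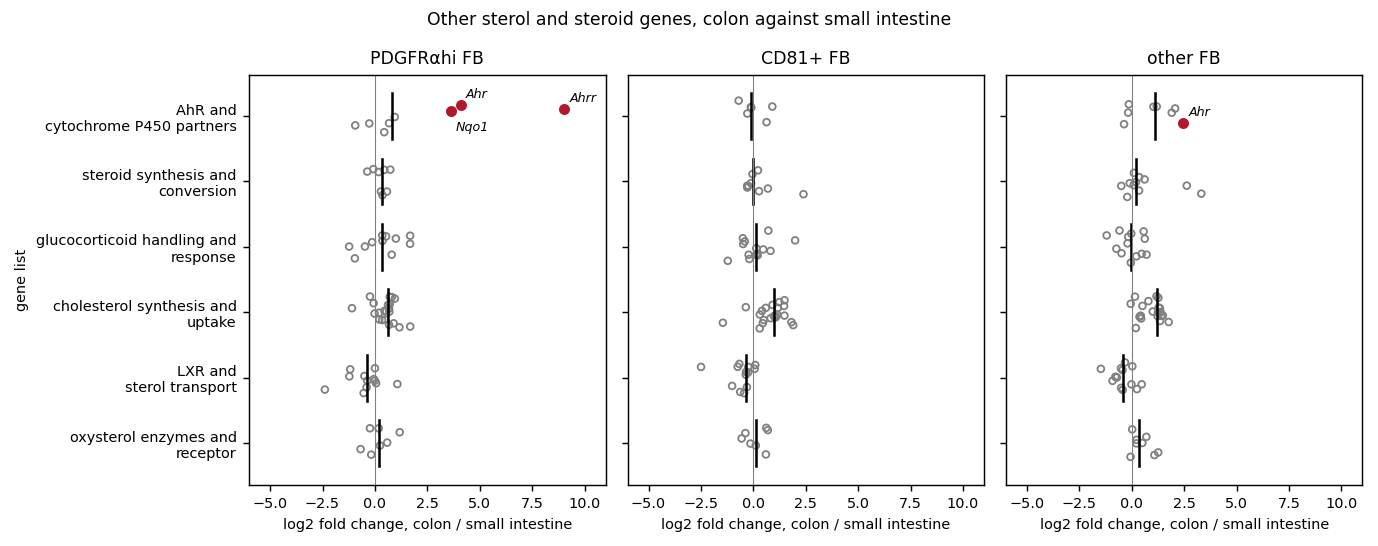
Log2 fold change of colon over small intestine (horizontal axis) for genes of 6 lists (vertical axis) in 3 FB classes. Open points are genes not called, red points the called genes, and black lines list medians. The called genes are *Ahr*, *Nqo1* and *Ahrr* in PDGFRαhi FB and *Ahr* in other FB, all to the right of 0.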

How the data were processed

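Single-cell RNA was measured in 4 libraries, 2 of small intestinal and 2 of colonic MSC. The deposited matrices hold UMI counts per gene and cell, which the authors made with Cell Ranger (3.0.2 for replicate 1 and 3.1.0 for replicate 2, per the file headers) on mm10. No other columns were used. The 5 members and the gene lists were chosen with earlier results of these data known.

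Cells were kept from 500 genes and 1000 UMIs upwards, with no more than 10% of UMIs mitochondrial. Scrublet, at an expected rate of 0.8% per 1000 cells, removed 6 and 913 small intestinal and 32 and 580 colonic doublets (replicates 1 and 2). Marker scores (z-scores up to 5, averaged over a cell and its 14 nearest cells on 30 principal components of 2000 variable genes, without members or list genes) assigned classes at a score above 0.4 for MSC panels and 1 for others (scanpy 1.11.5, Python 3.11.15). Counts were summed per library and class. Intervals are exact 95% Poisson or binomial intervals, and intervals and floors of 3 counts cover counting error only.

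Colon was compared with small intestine on the sums in each FB class with edgeR 4.0.16 (R 4.3.3; filterByExpr, TMM, robust quasi-likelihood test, no replicate block), and a call needed a Benjamini-Hochberg adjusted p under 0.05 and an absolute log2 fold change over 1.5. Libraries are pools of mice, so p-values measure the spread between these libraries. On simulated counts with 200 genes changed by 3 (log2), 94% of them were recovered in PDGFRαhi FB (11516 genes), 99% in CD81+ FB (11394 genes) and 87.5% in other FB (13000 genes). Alternatives were RLE size factors, DESeq2 1.42.0, no low-count filter, the replicate block, each library left out, at least 1000 genes per cell, doublets kept, clusters of each library, a stricter gate and, chosen after seeing the data, scores of single cells. Named list genes were called genes (up to 8 per class) whose 2 same-numbered library pairs shared a direction and whose higher intestine had 50 or more UMIs in both libraries, beside members, the 3 genes most alike to each and list genes a route needs. One gene alike to *Hsd11b1* is not reported here. Gene positions are from GENCODE vM21 (GRCm38) and promoters from RefSeq (GRCm38.p6), which matched 4 of the 5 members. *Cyp7b1* has no promoter entry.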

Additional observations from a re-analysis of the deposited data

Results flagged for a closer look

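Some cells outside the MSC classes compared in the report held members above the level that 3 counts give. Endothelial cells of small intestine replicate 1 (359 cells, floor 1.853 CPM) held 45.08 CPM of *Ch25h*, 11.73 CPM of *Cyp7b1*, 72.87 CPM of *Hsd3b7*, 2.47 CPM of *Hsd11b1* and 63.6 CPM of *Cyp1b1*. Endothelial cells of colon replicate 1 (239 cells, floor 2.264 CPM) held 65.66 CPM of *Ch25h*, 3.019 CPM of *Cyp7b1*, 112.4 CPM of *Hsd3b7* and 5.283 CPM of *Hsd11b1*. The *Hsd3b7* levels rest on 118 and 149 UMIs and were above those of each MSC class of the same library. Cells gated by *Myoc*, *Apod* and *Ptn* in colon replicate 2 (288 cells, floor 2.671 CPM) held 12.47 CPM of *Ch25h*, 6.233 CPM of *Cyp7b1* and 155.8 CPM of *Hsd11b1*. Colon replicate 2 had 24 endothelial cells (floor 18.9 CPM), with 132 CPM of *Ch25h* (21 UMIs) and 25.2 CPM of *Cyp7b1* (4 UMIs), while *Hsd3b7* had 2 UMIs. CD31+ cells had been sorted against.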

How the results depend on the processing

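The counts of called genes depended on the processing, whereas most member differences kept their direction. For all genes, 193, 43 and 66 were called in PDGFRαhi FB, CD81+ FB and other FB, against 578, 232 and 460 by DESeq2 and 664, 421 and 356 with no low-count filter. Clusters of each library gave 89 and the stricter gate 108 in CD81+ FB. Leaving out 1 library gave 0 to 512, 51 to 138 and 0 to 189. List genes called were 3, 0 and 1, against 6, 2 and 4 by DESeq2, 7, 4 and 2 with no filter, 1, 1 and 0 with the stricter gate, 1 in CD81+ FB and 0 in other FB with clusters, and 0 to 5, 0 to 1 and 0 to 1 with 1 library left out. The cause was not tested.

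The labels do not tie a replicate number to shared mice or a batch, and there are 2 pairs, so the pairing was not used. Same-numbered libraries do share the Cell Ranger version, and their deviations correlated at 0.71, 0.62 and 0.77. With the replicate block, 953, 418 and 774 genes and 7, 5 and 7 list genes were called. Beyond the AhR list these were 1 of LXR, 1 of cholesterol and 2 of glucocorticoid genes in PDGFRαhi FB, 1 of LXR, 3 of cholesterol and 1 of steroid genes in CD81+ FB, and 2 of cholesterol and 2 of steroid genes in other FB.

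With 1 library left out, log2 differences that changed sign ranged from -3.74 to 3.62, -3.40 to 4.33 and -3.07 to 4.51 for *Hsd3b7* in the 3 classes, from -1.14 to 1.39 in CD81+ FB and -0.18 to 1.25 in other FB for *Ch25h*, and from -0.71 to 0.29 for *Hsd11b1* in CD81+ FB. Of the other alternatives for members, 124 moved by less than the spread between replicates, 11 moved by more and none changed sign. Sums of under 20 UMIs, as for *Hsd3b7* in replicate 2, limit what can be compared.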
